A study of Felis catus with 2 samples.

Results

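The genes described here are 10 that mark the endothelium of blood vessels: PECAM1, CDH5, VWF, KDR, FLT1, ESAM, ENG, EMCN, CLDN5 and ROBO4. They were chosen by name, as the rows of the deposited table whose gene name equals one of these symbols, and where a name stood on 2 rows the row with the higher mean was used. Of the 10 names, 9 were found among 32065 loci. PECAM1 was not among the listed names and was not analysed here. The libraries held polyadenylated RNA from the iridocorneal angle, the tissue where iris and cornea meet, dissected with ciliary body, adjacent sclera and trabecular meshwork. One library came from a 2-month-old cat affected by primary congenital glaucoma, a recessive disease that the study traced to a frameshift insertion in LTBP2 in a pedigree founded by Siamese cats. The other came from an unrelated normal cat of the same age. With 1 library per condition there was no replicate error and no test of a difference between conditions, and every ratio below describes these 2 libraries.

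Vascular endothelium is the single layer of cells that lines blood vessels. Its cells are held together by adherens junctions and tight junctions, take growth and survival signals from vascular endothelial growth factors (VEGF) through receptor tyrosine kinases, and store von Willebrand factor for haemostasis. In the anterior eye such cells line the vessels of the iris, ciliary body and sclera, and cells with many endothelial features line the channels that drain aqueous humour. In bulk tissue, fewer endothelial cells, less of each RNA per endothelial cell and RNA of the same genes from other cells cannot be told apart.

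The deposited values are FPKM, in which fragment numbers are scaled by exon length and by library size, so levels can be set side by side between genes. The values sum to 649113 FPKM in the normal library against 672893 FPKM in the affected one, and every pair of values below gives the normal library first. Steps between low values showed that 1 fragment on 1 kilobase of effective transcript length was worth 0.0141 FPKM in the normal library against 0.0148 FPKM in the affected one. The 95% intervals given for the members are exact Poisson intervals for a transcript with 1 kilobase of effective length. Longer transcripts would have narrower ones, the table gives no transcript lengths, and the intervals cover counting error only. Log2 ratios were taken as affected over normal after adding 1 FPKM to each value, which understates the differences of low genes, and "at least 2-fold" or "at least 4-fold" refers to that scale, whereas a fold difference printed beside 2 FPKM values is their plain ratio. Loci that reached 1 FPKM in either library are called expressed. They numbered 16676, and all 9 members found were among them. The median log2 ratio of the expressed loci was −0.0047, with quartiles of −0.43 and 0.40. The tissue was recognisable in both libraries by the ciliary body gene OPTC, at 351.0 FPKM in the normal library against 1235 FPKM in the affected one, and by the angle gene MYOC, at 149.7 and 301.5 FPKM.

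Most of the endothelial genes stood lower in the affected library. Of the 9 members, 8 were lower and 1, FLT1, was higher. At least 2-fold lower were 6 members, namely CDH5, ESAM, ENG, EMCN, CLDN5 and ROBO4, while no member was at least 2-fold higher. Across the 16676 expressed loci, 50.3% were lower by any amount, 8.75% were at least 2-fold lower and 8.14% at least 2-fold higher. The median log2 ratio of the members was −1.70. Their summed level was 196.6 FPKM in the normal library against 80.8 FPKM in the affected one, a 2.43-fold difference, which was 2.93-fold without FLT1. The counting intervals of the libraries do not overlap for any of the 9 members, with 8 lower and 1 higher in the affected library. The same holds for 73.6% of the expressed loci, 37.3% lower and 36.3% higher, so such separation was common and is not particular to the members.

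**Figure D1:**
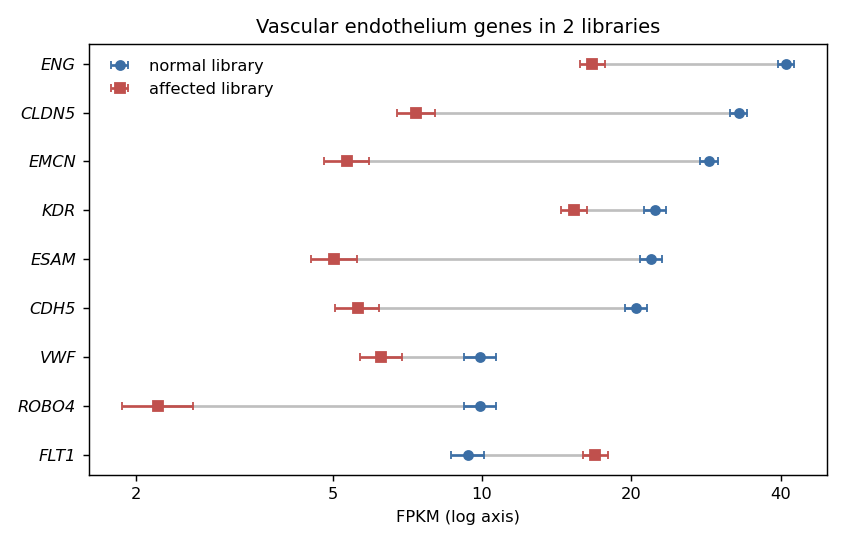
FPKM (log axis) of the 9 members in the normal library (blue circles) and the affected library (red squares), with exact 95% Poisson intervals for 1 kilobase of effective length, ordered by the normal value. The affected value lies to the left of the normal one for 8 genes and to the right for FLT1, and the intervals of the libraries do not overlap for any of the 9, as for 73.6% of the expressed loci.

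The 3 genes of endothelial cell contacts, CDH5, CLDN5 and ESAM, were 3.65-fold to 4.48-fold lower in the affected library. CDH5 encodes VE-cadherin, the adhesion molecule of endothelial adherens junctions, and its locus lies on chromosome E2 of felCat5, the build of all positions given here, from 44302593 to 44336449. Its level was 20.5 FPKM in the normal library (19.4 to 21.5) against 5.61 FPKM in the affected one (5.06 to 6.20), so the normal value was 3.65 times the affected one (3.26 to 4.09 from counting error). The log2 ratio of CDH5 was −1.70, and 2.78% of the expressed loci had a lower one.

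CLDN5 encodes claudin-5, the main claudin of endothelial tight junctions. Its locus, on chromosome D3 from 27448973 to 27450466, spans 1494 bases. CLDN5 stood at 32.9 FPKM in the normal library (31.6 to 34.3) against 7.35 FPKM in the affected one (6.72 to 8.03), a 4.48-fold difference (4.06 to 4.94) and a log2 ratio of −2.02. Of the expressed loci, 1.73% had a lower ratio. In the normal library only ENG had a higher level among the members, whereas in the affected library FLT1, ENG and KDR did.

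ESAM, a junctional adhesion molecule of endothelial cells and platelets, lies on chromosome D1 from 21626929 to 21635919. Its level was 21.9 FPKM in the normal library (20.9 to 23.0) against 5.03 FPKM in the affected one (4.51 to 5.60), a 4.36-fold difference (3.87 to 4.91) with a log2 ratio of −1.93, under which 1.91% of the expressed loci lay. At 1 kilobase of effective length the intervals of ESAM and CDH5 overlap in the normal library, and they do so in the affected library as well. The ratio of ESAM to CDH5 was 1.07 in the normal library against 0.897 in the affected one.

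Partners of these junctions that other cell types also use differed less. Of 17 junction genes written down, 14 were expressed, with a median log2 ratio of −0.13, and 1 was at least 2-fold lower and 1 at least 2-fold higher. CTNNB1, the beta-catenin that binds cadherin tails, stood at 252.4 FPKM in the normal library against 162.7 FPKM in the affected one. CTNND1, the p120-catenin that holds cadherins at the membrane, stood at 33.3 and 24.5 FPKM, and CTNNA1, alpha-catenin, at 87.9 and 79.1 FPKM. Those catenin log2 ratios were −0.63, −0.43 and −0.15, each closer to 0 than that of CDH5.

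Other cadherins and claudins went separate ways. CDH1, the cadherin of epithelia, was 2.55-fold lower in the affected library (10.1 against 3.96 FPKM), and CDH2, the N-cadherin of neural and mesenchymal cells, was 1.23-fold higher (53.5 against 66.1 FPKM). CLDN1, a claudin of epithelia, was 2.27-fold higher, with 9.88 FPKM in the normal library against 22.4 FPKM in the affected one. The ratio of CLDN5 to CLDN1 was therefore 3.33 in the normal library against 0.329 in the affected one, so the more abundant of these claudins was not the same in both.

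EMCN showed the lowest log2 ratio of the 9 members. It encodes endomucin, a sialomucin on the surface of venous and capillary endothelium, and lies on chromosome B1 from 121677476 to 121780875. It stood at 28.7 FPKM in the normal library (27.5 to 30.0) against 5.35 FPKM in the affected one (4.81 to 5.92), a 5.37-fold difference (4.80 to 6.02). Its log2 ratio was −2.23, and 213 of the 16676 expressed loci had a lower one. EMCN and CLDN5 were at least 4-fold lower on this scale, as were 1.79% of all expressed loci. In the normal library 2 members had a higher level than EMCN, and in the affected library 6 did.

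ROBO4 encodes an endothelial receptor of the roundabout family that steadies the vessel wall, on chromosome D1 from 21734864 to 21748484. It had the lowest level of the members in the affected library, at 2.22 FPKM (1.88 to 2.61), against 9.91 FPKM in the normal library (9.19 to 10.7), a 4.47-fold difference (3.74 to 5.36). On 1 kilobase of effective length its affected value corresponds to 150 fragments, the thinnest support of any member value, against 704 fragments in the normal library. The log2 ratio was −1.76. A pseudocount of 0.1 FPKM moved it to −2.11, the largest shift of a member under the alternatives run.

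The ROBO4 and ESAM loci lie 98944 bases apart, and the ratio of ESAM to ROBO4 was 2.21 in the normal library against 2.27 in the affected one. The named loci between them differed by less. MSANTD2 was at 8.66 FPKM in the normal library against 6.87 FPKM in the affected one, and ROBO3, an axon guidance receptor next to ROBO4, was at 0.888 and 1.35 FPKM.

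The other ROBO receptors and their SLIT ligands varied in direction. Of 6 such genes written down, 5 were expressed, with 1 at least 2-fold lower (ROBO1), 1 at least 2-fold higher (SLIT1) and a median log2 ratio of 0.05, which was −0.85 with a minimum mean of 5 FPKM. ROBO1, a guidance receptor found in endothelial and many other cells, was lower in the affected library, at 12.05 FPKM (normal) against 3.58 FPKM. ROBO2 was at 3.86 and 4.05 FPKM. Among the secreted ligands, SLIT3 was lower, at 40.3 against 21.9 FPKM, and SLIT1 was higher, at 5.98 against 20.4 FPKM.

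ENG encodes endoglin, the co-receptor with which endothelial cells bind BMP9 and BMP10 next to the type I receptor ALK1. Its locus lies on chromosome D4 from 88331735 to 88372421. ENG had the highest level of the members in the normal library, at 41.0 FPKM (39.6 to 42.6), and 16.7 FPKM in the affected library (15.7 to 17.7), a 2.46-fold difference (2.29 to 2.63) and a log2 ratio of −1.25, with 5.68% of the expressed loci below it. FPGS, which encodes a folate enzyme, is listed with the same span as ENG. The FPGS row went the other way, with 6.64 FPKM in the normal library against 18.6 FPKM in the affected one. How fragments were divided between these overlapping rows was not tested.

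ACVRL1, which encodes ALK1 itself, was lower together with ENG, at 18.4 FPKM in the normal library against 5.50 FPKM in the affected one, a log2 ratio of −1.58. ENG exceeded ACVRL1 2.23-fold in the normal and 3.03-fold in the affected library. The receptors of this pathway that many cell types carry were closer to equal. BMPR2 was at 9.47 and 7.90 FPKM, ACVR2A at 7.83 and 5.86 FPKM, TGFBR1 at 15.2 and 13.2 FPKM, and TGFBR2 at 30.5 and 19.2 FPKM.

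Signal carriers and targets downstream of these receptors did not follow ENG. The receptor SMADs were nearly level, with SMAD1 at 14.3 and 11.9 FPKM, SMAD5 at 17.8 and 17.6 FPKM, and SMAD9 at 13.9 FPKM in both libraries. The inhibitory SMAD6 was at 17.9 and 21.8 FPKM and SMAD7 at 12.5 and 9.15 FPKM. The BMP target genes stood higher in the affected library, ID1 at 156.5 against 402.9 FPKM, ID2 at 95.7 against 168.5 FPKM and ID3 at 202.3 against 284.0 FPKM. Over the 13 expressed genes of the endoglin and ALK1 list the median log2 ratio was −0.19, with 1 gene at least 2-fold lower (ACVRL1) and 1 at least 2-fold higher (ID1). The ligand genes GDF2 and BMP10 were under 1 FPKM in both libraries.

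The VEGF receptors among the members, KDR and FLT1, were not at least 2-fold different in either direction, and neither was VWF. KDR encodes VEGFR2, the main signalling receptor for VEGF-A, on chromosome B1 from 161313558 to 161360215. KDR RNA stood at 22.3 FPKM in the normal library (21.2 to 23.4) against 15.4 FPKM in the affected one (14.4 to 16.3), a 1.45-fold difference (1.34 to 1.57). The log2 ratio of KDR, −0.51, did not reach 2-fold, and 21.4% of the expressed loci had a lower one.

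FLT1 encodes VEGFR1, which binds VEGF-A tightly, signals weakly, and is also made as a soluble form that traps the ligand. It was the only member higher in the affected library, at 9.35 FPKM in the normal library (8.65 to 10.1) against 16.9 FPKM in the affected one (16.0 to 17.9), a 1.81-fold difference (1.64 to 1.995) and a log2 ratio of 0.79. Of the expressed loci, 88.4% had a lower ratio. The locus lies on chromosome A1 from 7752187 to 7902329. A second row named FLT1 has the same span and far lower values, 0.276 FPKM in the normal library against 0.233 FPKM in the affected one. Each value is a sum over isoforms, so the membrane-bound and soluble forms were not separated here.

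The balance between these receptors was therefore not the same in the libraries. KDR exceeded FLT1 2.39-fold in the normal library, whereas the ratio was 0.907 in the affected library. FLT1 had the lowest level of the 9 members in the normal library and the highest in the affected library. There its interval at 1 kilobase of effective length overlaps those of ENG and KDR.

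Ligands and co-receptors of the VEGF family were mostly lower in the affected library, and only VEGFB was higher. VEGFA, the main driver of vessel growth, was nearly level, with 32.8 FPKM in the normal library against 30.3 FPKM in the affected one. VEGFA exceeded KDR 1.47-fold in the normal and 1.97-fold in the affected library. VEGFB, a ligand of FLT1 alone among the VEGF receptors, was the most abundant of the family, at 92.2 and 112.2 FPKM. PGF, placenta growth factor and likewise an FLT1 ligand, was lower in the affected library, at 12.1 against 4.45 FPKM, as was the lymphatic growth factor VEGFC, at 14.2 against 6.72 FPKM.

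NRP1, a co-receptor that strengthens VEGFR2 signalling, was at 22.3 FPKM in the normal library against 5.93 FPKM in the affected one, a 3.76-fold difference that is larger than the one of KDR. NRP2 was at 15.9 and 11.3 FPKM. FLT4, the VEGFC receptor of lymphatic endothelium, was at 2.42 and 0.733 FPKM. Of the 7 genes of this list that were found, all expressed, 6 were lower in the affected library, 2 of them at least 2-fold (NRP1 and PGF), and the median log2 ratio was −0.98.

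**Figure D2:**
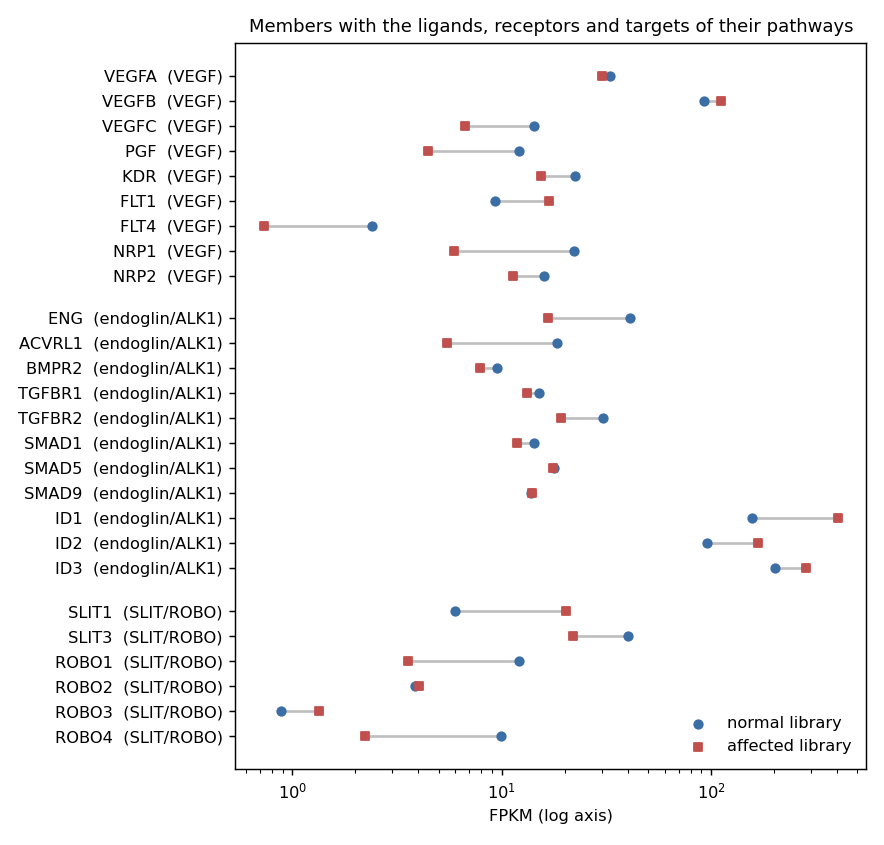
FPKM (log axis) of VEGF, endoglin and ALK1, and SLIT and ROBO genes in the normal library (blue circles) and the affected library (red squares). Among the VEGF receptors FLT1 lies further right in the affected library, VEGFA and the receptor SMADs nearly coincide, and ENG, ACVRL1, NRP1, ROBO1 and ROBO4 lie further left.

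VWF encodes von Willebrand factor, the large glycoprotein that endothelial cells store and that tethers platelets. Its locus spans 150243 bases on chromosome B4 from 40290020 to 40440262. The VWF level was 9.92 FPKM in the normal library (9.20 to 10.7) against 6.26 FPKM in the affected one (5.68 to 6.89), a 1.58-fold difference (1.40 to 1.79) with a log2 ratio of −0.59, below which lay 18.6% of the expressed loci. In the normal library 6 members had a higher level than VWF, and in the affected library 4 did. The ratio of VWF to CDH5 was 0.485 in the normal library against 1.12 in the affected one.

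Platelets and their precursors also carry VWF RNA, and the genes that mark them were low in both libraries. ITGA2B, the platelet integrin chain, was at 1.21 and 1.29 FPKM, and GP9, a subunit of the platelet receptor for VWF, was at 1.46 and 0.212 FPKM. PPBP, a platelet chemokine, was at 2.03 and 0.559 FPKM, and GP1BA and TUBB1 were under 1 FPKM in both libraries. Among genes that act on VWF, ADAMTS13, which cleaves it, was at 1.69 FPKM in the normal library against 3.61 FPKM in the affected one. RAB27A, which takes part in the release of its storage granules, was at 22.7 and 19.5 FPKM. The 7 expressed genes of the coagulation list had a median log2 ratio of 0.0047, with 1 at least 2-fold lower (GP9) and none at least 2-fold higher. Its sign was not stable, since the median was −0.037 after rescaling both libraries to the same sum, −0.023 without the filter and −0.21 with a minimum mean of 5 FPKM.

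The members thus did not differ by 1 common factor. The SD over their 9 log2 ratios was 0.98, and the ratios spanned 3.02 on the log2 scale, from EMCN to FLT1. CDH5, ROBO4, ESAM, CLDN5 and EMCN formed a run from −1.70 to −2.23, ENG followed at −1.25, and VWF, KDR and FLT1 stood at −0.59, −0.51 and 0.79. These spreads are among genes, which are not replicates. Under the alternatives run the log2 ratio of CDH5 lay between −1.85 and −1.70, that of ENG between −1.32 and −1.25, that of KDR between −0.57 and −0.51 and that of FLT1 between 0.76 and 0.85, and none of the 9 members changed direction.

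**Figure D3:**
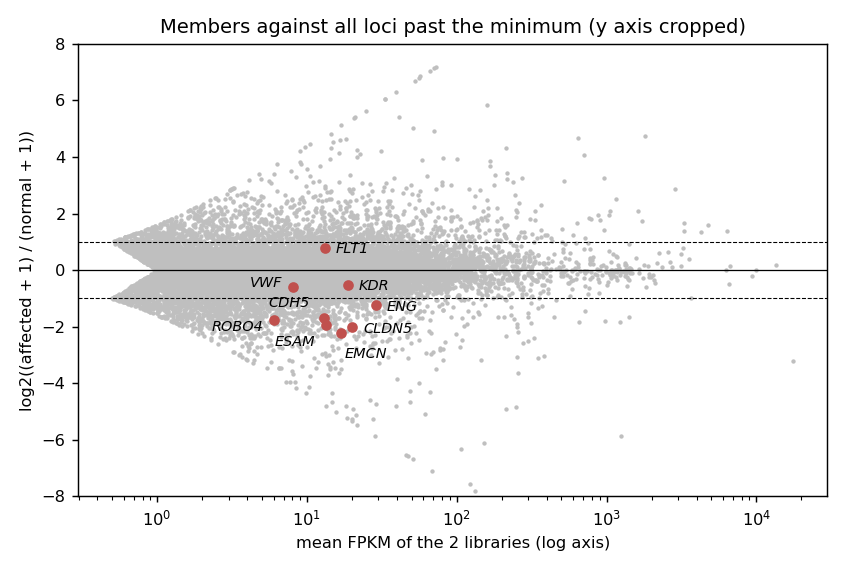
Log2 ratio, affected over normal, against the mean FPKM of the libraries (log axis) for 16676 expressed loci (grey) and the 9 members (red), with dashed lines at 2-fold. The vertical axis is cropped at −8 and 8. Under the lower line lie 6 members, and VWF, KDR and FLT1 lie between the lines.

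The order of the levels differed as well. In the normal library ENG was followed by CLDN5 and EMCN, none of whose intervals overlap. KDR overlapped ESAM and CDH5 in part, at 20.5 to 22.3 FPKM, and VWF, ROBO4 and FLT1 overlapped each other at 9.35 to 9.92 FPKM. In the affected library FLT1, ENG and KDR formed the upper group at 15.4 to 16.9 FPKM. CLDN5, VWF, CDH5, EMCN and ESAM followed at 5.03 to 7.35 FPKM, each overlapping the next, and ROBO4 stood apart at 2.22 FPKM.

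As shares of the members' summed FPKM, KDR and FLT1 together made up 16.1% in the normal library against 39.96% in the affected one. The share of ENG was 20.9% and 20.7%, so that it followed the sum. The share of EMCN was 14.6% in the normal library against 6.62% in the affected one, that of CLDN5 16.7% and 9.10%, and that of VWF 5.05% and 7.75%.

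Set against CDH5, the members differed in their proportions. CLDN5 stood at 1.61 per CDH5 in the normal library against 1.31 in the affected one, EMCN at 1.40 against 0.953, and ROBO4 at 0.484 against 0.395, each a lower proportion in the affected library. ENG stood at 2.01 per CDH5 against 2.98, KDR at 1.09 against 2.74, and FLT1 at 0.457 against 3.02. For KDR, VWF and FLT1 the plain ratio to CDH5 was more than 2 times as high in the affected library.

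**Figure D4:**
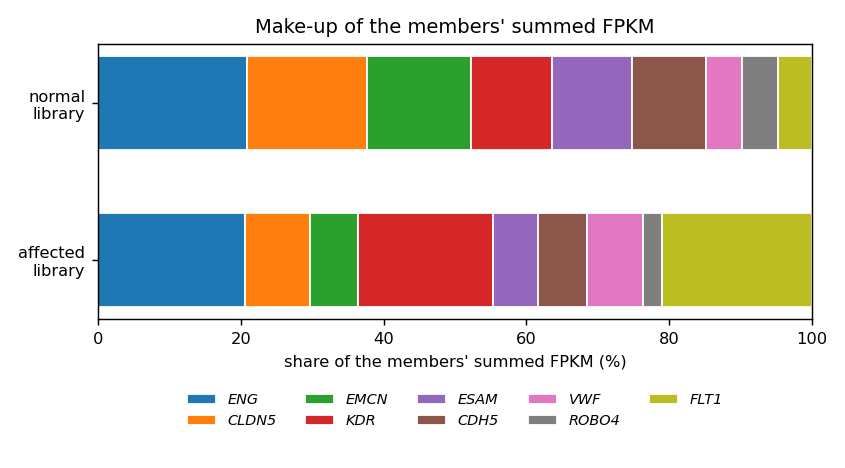
Share of each member in the summed FPKM of the 9 members (%), with 1 bar per library and genes in the order of their normal level. FLT1 takes 4.76% of the normal and 20.9% of the affected bar, while ENG takes about the same part of both.

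The level of CDH5 exceeded that of 74.4% of the expressed loci in the normal library and 40.5% of them in the affected one. For EMCN these percentiles were 81.7 and 39.5, for ROBO4 54.6 and 22.1, and for ENG 87.4 and 68.6. FLT1 went from the 53.0th to the 68.9th percentile.

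Other genes of endothelial cells, none of them members, stood lower in the affected library for the most part. Of 31 surface and secreted genes written down, 26 were expressed, of which 16 were at least 2-fold lower and none at least 2-fold higher, with a median log2 ratio of −1.55 beside the −1.70 of the members. The list, like the members, was chosen with earlier results of these data known. In this list ECSCR, an endothelial surface protein, had the lowest ratio (25.8 against 2.34 FPKM), and ICAM1, an adhesion molecule that inflammation induces in many cell types, was the only gene that was higher (4.92 against 7.52 FPKM). TEK, the angiopoietin receptor, was at 12.1 against 2.95 FPKM, named here after its values were seen because its log2 ratio of −1.74 is close to that of CDH5. Its ligand ANGPT1, which mural cells secrete, was at 7.71 against 3.39 FPKM, ANGPTL4, a related secreted protein, at 10.1 against 3.65 FPKM, and ANGPT2 is listed at 0 in both libraries.

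Transcription factors of endothelial cells were lower in the affected library in 10 of 10 expressed cases, 4 of them at least 2-fold, with a median log2 ratio of −0.90. ERG, an ETS factor known to act on CDH5 and other endothelial genes, had the lowest ratio of them, at 16.1 against 1.70 FPKM (−2.66), whereas EPAS1, a hypoxia-inducible factor that many cell types use, was nearly level at 52.8 against 51.4 FPKM. Genes of arterial endothelium and Notch signalling were lower in 9 of 9 expressed cases, 2 of them at least 2-fold, with a median of −0.78. Venous and lymphatic genes had a median of −0.61 over 6 expressed genes, of which 4 were lower and 2 were higher. That median was −0.29 without the filter and −0.20 with a minimum mean of 5 FPKM.

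Markers of several other cell types differed beside the members, and their part in the endothelial differences was not tested. The 12 genes of mural cells, the pericytes and smooth muscle cells of vessel walls, summed to 1362 against 1133 FPKM, with 4 at least 2-fold lower, none at least 2-fold higher, none at 0 and a median of −0.58. RGS5, a signalling regulator of pericytes, had the lowest log2 ratio of them (37.6 against 4.70 FPKM). MYH11, a myosin of smooth muscle that the ciliary muscle also makes, had the highest (88.2 against 140.8 FPKM). The plain ratio was lowest for KCNJ8 (5.01 against 0.296 FPKM). The 10 genes of vessel basement membranes had a median of −0.83, with 1 at least 2-fold lower, the laminin chain LAMA4 (19.5 against 6.44 FPKM).

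The 7 red blood cell genes found summed to 222.7 against 3.75 FPKM, and 3 of 4 expressed ones were at least 2-fold lower. The globin gene HBA was at 213.7 against 1.64 FPKM, and HBM and SLC4A1 are listed at 0 in the affected library. All 11 cell division genes found were at least 2-fold lower, and they summed to 143.9 against 21.0 FPKM. Genes of the corneal and conjunctival epithelium summed to 1071 against 113.1 FPKM, with 10 of 11 expressed genes at least 2-fold lower and PAX9 listed at 0 in the normal library. Genes of the corneal endothelium, which lines no vessel, summed to 233.5 against 102.8 FPKM, with 3 of 5 at least 2-fold lower.

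Leukocytes share several surface genes with endothelium, and their 12 markers found stood at 182.5 against 220.6 FPKM in sum, with none of 11 expressed genes at least 2-fold lower, 1 at least 2-fold higher, LYZ listed at 0 in both libraries and a median of 0.30. Photoreceptor genes summed to 339.2 against 1459 FPKM, with 6 of 7 at least 2-fold higher. Lens genes summed to 51959 against 37340 FPKM, with 5 of 10 at least 2-fold higher, 2 at least 2-fold lower. CRYAA, a lens crystallin that gave 22978 FPKM of the normal sum, is listed at 0 in the affected library. Among 10 genes of trabecular meshwork and ciliary tissue, 5 were at least 2-fold higher and 4 at least 2-fold lower.

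**Figure D5:**
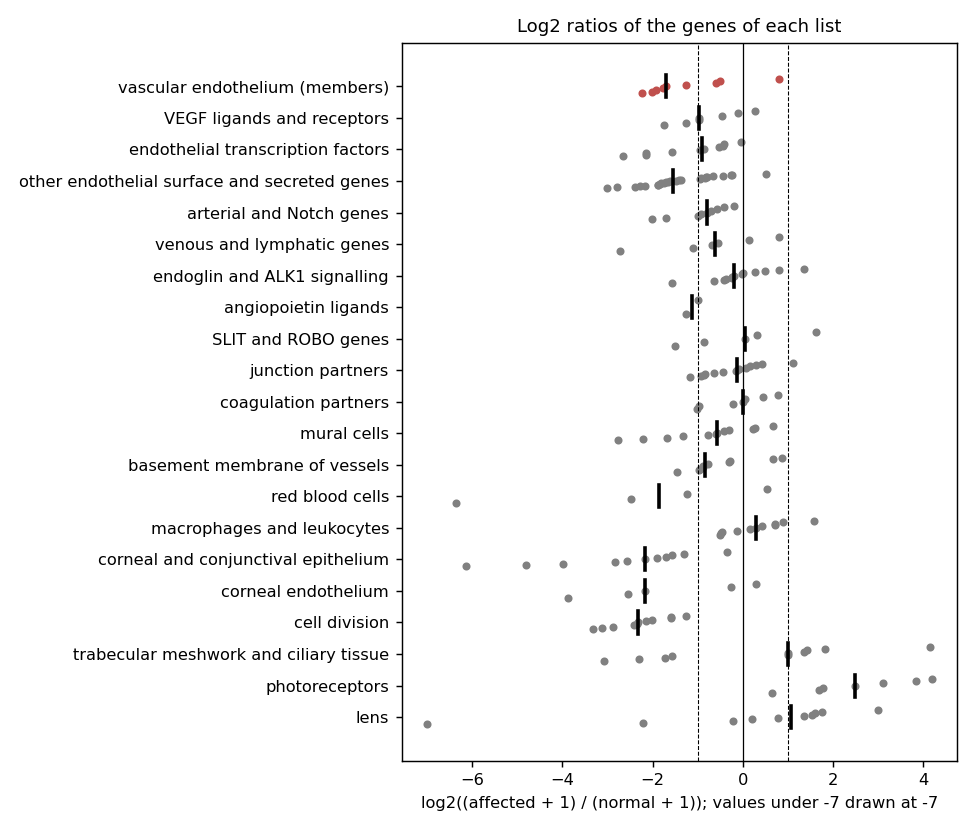
Log2 ratios, affected over normal, of the expressed genes of each list (points) with the list's median (black bars) and dashed lines at 2-fold; values under −7 are drawn at −7. The members (red) have a median of −1.70, near that of the other endothelial surface genes (−1.55), while the medians of the junction partners (−0.13), coagulation genes (0.0047) and SLIT and ROBO genes (0.05) are near 0, with single genes on both sides. Members and lists were chosen with earlier results of these data known.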

How the data were processed

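Polyadenylated RNA of 2 libraries, grouped by the disease state in the labels, was analysed. The authors deposited 1 FPKM value per locus and library. Per the labels and the methods, reads were aligned with TopHat2 2.0.9 to felCat5 with Ensembl gene predictions, and FPKM were calculated with Cufflinks 2.1.1. Scaling between libraries, filters and the strand setting are not given in the sources used here.

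For each locus that reached 1 FPKM in either library, 1 FPKM was added to both values and the log2 of affected over normal was taken, with no rescaling. No count model fits FPKM, and 1 library per condition allows no p-value. The value of 1 fragment was read off the spacing of low values of unnamed loci spanning 300 to 3000 bases, for which the span was taken as the transcript length. Whole fragments, with a tolerance of 0.03, were obtained at 97.3% of 2470 loci in the normal library and 95.7% of 2021 loci in the affected one, where 6% would come out whole by chance. Scaled totals were about 71100000 and 67600000 fragments. Intervals of ratios are exact binomial ones. The log2 ratios and the estimate of the value of 1 fragment were tested on simulated data, and the intervals were not. Deposited starts count from 0 and are given here counted from 1.

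The members and lists were chosen with earlier results of these data known. The genes to name were all those of the pathway lists and, of other lists, the 4 with the highest mean FPKM and those with the highest and lowest log2 ratio. Most of the latter are given as counts and sums. Some genes outside this rule are named as well, among them ITGA2B, PPBP, GP1BA, TUBB1, MYOC and TEK. Alternatives were a pseudocount of 0.1 FPKM, 2 rescalings, no filter, a minimum mean of 5 FPKM, a threshold of 4-fold, the mean of the list and summed rows of a name. Python 3.11.15, numpy 2.4.6, pandas 2.3.3, scipy 1.17.1 and matplotlib 3.10.9 were used. A gene table of a later cat assembly was not used, and no sequences were analysed here.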

Additional observations from a re-analysis of the deposited data

How the results depend on the processing

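The count of 6 members at least 2-fold lower was the same with a pseudocount of 0.1 FPKM and under both rescalings, and it was 2 at 4-fold. Every member found passed both filters, so the count could not change without a filter or with a minimum mean of 5 FPKM. The median log2 ratio of the members was −1.85 with a pseudocount of 0.1 FPKM and −1.24 as a mean in place of the median. Loci at least 2-fold lower and higher were 691 and 815 under a minimum mean of 5 FPKM and 298 and 280 at 4-fold, since both settings pass fewer loci. They were 2173 and 1992 with a pseudocount of 0.1 FPKM and 1946 and 1568 after rescaling to the same sum, against 1459 and 1358 as reported. Among 54 recomputed log2 ratios of the 9 members, 5 moved by more than counting error and none changed sign. Ratios recomputed under the 2 filter settings, and with summed rows for members other than FLT1, could not move. Of 100 recomputed medians of the 20 other lists, 23 moved by more than the median counting error of the list's single genes. In sign 4 changed, none of them from a median of 2-fold or more. The filter settings also change which genes a list holds, and the cause of the moves was not tested. No paired analysis was possible because only 1 cat stood for each condition. The counting error assumes 1 kilobase of effective length, and variation between cats, eyes or dissections cannot be estimated from these data.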
